A study of Mus musculus with 6 samples.

Results

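The genes of melanin synthesis and melanosome structure were examined in mouse skin as 9 genes: the enzymes Tyr, Tyrp1 and Dct, the structural proteins Pmel and Mlana, the transporters Slc45a2, Oca2 and Slc24a5, and the receptor Gpr143. They were taken by symbol as products of the melanosome, and all 9 were found among the 54146 Ensembl gene IDs of each library. The 6 libraries were made from total RNA of skin, of which 3 came from mice exposed to chronic restraint stress (CRS) and 3 from controls (CON), collected when the stress had lasted 12 weeks. Repeated immobilization of this kind is used as a model of psychological stress. The sources used here give no strain, sex, age, body site or hair cycle stage, and the controls were labelled only as such. The series' title ties the study to melanogenesis under psychological stress, so the comparison asks whether the transcripts of the pigment machinery differ between stressed and control skin.

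Melanin is made in melanosomes, lysosome-related organelles of melanocytes, which in mouse skin sit mostly in the hair follicles and hand their pigment to the keratinocytes of the growing hair. Tyrosinase starts the pathway by oxidizing tyrosine, Dct and Tyrp1 act on later intermediates of eumelanin, Pmel forms the fibrils on which melanin is laid down, and the transporters and Gpr143 set the ionic conditions, the size and the number of melanosomes. Mitf, the transcription factor of the lineage, binds a short sequence called the M-box in the promoters of several of these genes.

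Values were FPKM (fragments counted on a gene, scaled to its length and to the size of the library), from 13.3 to 25.7 M fragments per library. CON replicate 1 stood apart: 15.3% of its fragments came from mitochondrially encoded genes, against 2.50% to 4.19% elsewhere, and 15 skeletal muscle genes summed to 15776 FPKM against 511 to 3337 FPKM elsewhere. It also held Xist at 2.80 FPKM, against at most 0.168 FPKM in the others, while the Y-linked Ddx3y was at 8.68 to 32.7 FPKM in all 6. CRS replicate 2 had the fewest genes above 0, 29509, against 31227 to 35727 in the others. Over all 28389 genes tested the log2 fold changes had a median of -0.20, so most genes sat slightly lower in CRS on the deposited scale, and values relative to that median are given where they matter.

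The 9 genes formed an abundant and a scarce class. Mlana, Tyrp1, Pmel and Dct, with means over the 6 libraries of 94.7, 48.1, 45.8 and 38.5 FPKM, made up 88.4% to 93.0% of the summed FPKM of the set. Tyr, Slc45a2, Slc24a5, Oca2 and Gpr143 had means of 6.33, 4.58, 3.94, 3.59 and 2.33 FPKM. The classes did not overlap: the lowest value of the abundant class was 26.7 FPKM (Dct) and the highest of the scarce class 8.72 FPKM (Tyr). Within them some neighbours were not separable, since Tyrp1 exceeded Pmel in 4 of 6 libraries, Pmel exceeded Dct in 4 of 6, and Slc24a5 exceeded Oca2 in 3 of 6. Tyr exceeded Slc45a2, and Oca2 exceeded Gpr143, in all 6.

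**Figure D1:**
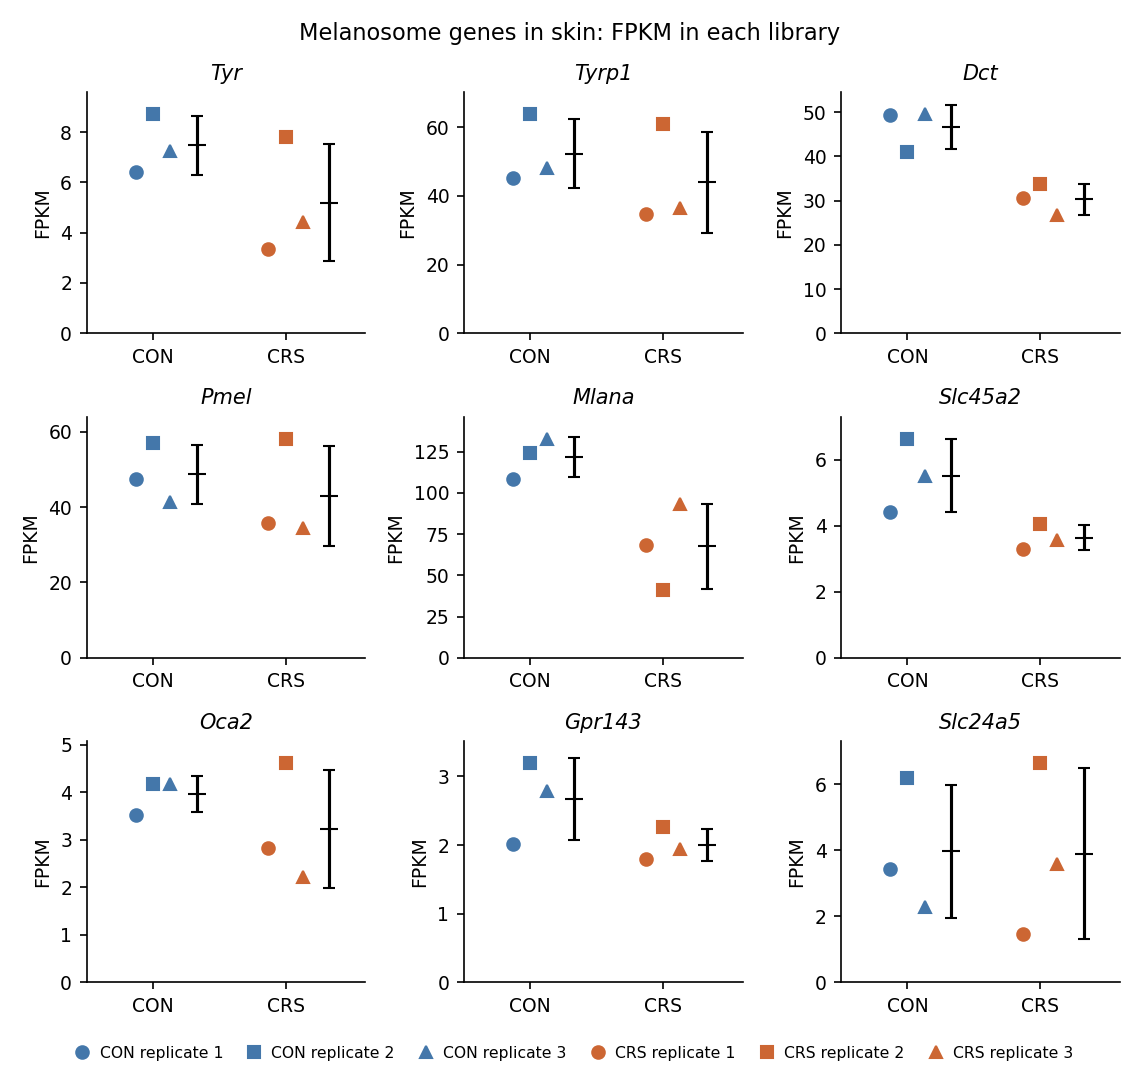
FPKM (linear axis from 0) of each of the 9 genes in the 3 CON and 3 CRS libraries; points are libraries, black bars the group mean ± SD. The CRS points of Dct, Mlana and Slc45a2 lie below all CON points, and CRS replicate 2 (orange square) lies near CON replicate 2 for Tyr, Tyrp1, Pmel and Slc24a5 but is the lowest for Mlana.

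Tyr (ENSMUSG00000004651, chromosome 7), the rate-limiting enzyme, stood at 6.42, 8.72 and 7.26 FPKM in CON replicates 1 to 3 and at 3.34, 7.83 and 4.43 FPKM in CRS replicates 1 to 3. CRS replicates 1 and 3 were below every control, while CRS replicate 2 lay within the control range. The log2 fold change was -0.59 (SE 0.38 and adjusted p = 0.9999 with limma), -0.33 without CRS replicate 1 and -0.93 without CRS replicate 2. Tyrp1 (ENSMUSG00000005994, chromosome 4), which acts late in eumelanin synthesis, stood at 45.2, 63.8 and 48.0 FPKM in the CON libraries and at 34.6, 60.9 and 36.4 FPKM in the CRS libraries. It ordered the 6 libraries exactly as Tyr did, with CON replicate 2 highest and CRS replicate 1 lowest, with a log2 fold change of -0.28 (SE 0.34 and adjusted p = 0.9999 with limma). It ran from -0.54 without CRS replicate 2 to -0.13 without CON replicate 2, and was -0.14 without CRS replicate 1 and -0.17 without CRS replicate 3. Dct (ENSMUSG00000022129, chromosome 14), dopachrome tautomerase, ordered the control libraries differently. It stood at 49.4, 41.0 and 49.6 FPKM in the CON libraries and at 30.5, 33.7 and 26.7 FPKM in the CRS libraries, so CON replicate 2, highest for Tyr and Tyrp1, was the lowest control. All CRS values lay below all CON values, at group means of 46.7 ± 4.90 and 30.3 ± 3.54 FPKM (SD, n = 3). The log2 fold change was -0.62 (SE 0.28 and adjusted p = 0.9999 with limma), and the exact two-sided permutation p was 0.1, the smallest that 3 against 3 allows.

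The promoters of these enzymes are shown because they share the element that Mitf is known to bind. The windows run from 250 bases before to 50 bases after the annotated start, 5′ to 3′ on the gene's strand, from RefSeq on build GRCm38.p6, and capitals mark the hexamer CATGTG on either strand (CACATG where it lies on the opposite one). Tyr is chr7:87493463-87493762 on the minus strand, Tyrp1 is chr4:80833963-80834262 on the plus strand and Dct is chr14:118052197-118052496 on the minus strand.
Tyr: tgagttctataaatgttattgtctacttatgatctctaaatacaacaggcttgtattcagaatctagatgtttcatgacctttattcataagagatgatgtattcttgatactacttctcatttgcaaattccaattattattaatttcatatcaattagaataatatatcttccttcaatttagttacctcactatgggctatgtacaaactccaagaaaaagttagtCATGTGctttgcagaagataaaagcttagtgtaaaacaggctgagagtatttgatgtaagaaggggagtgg
Tyrp1: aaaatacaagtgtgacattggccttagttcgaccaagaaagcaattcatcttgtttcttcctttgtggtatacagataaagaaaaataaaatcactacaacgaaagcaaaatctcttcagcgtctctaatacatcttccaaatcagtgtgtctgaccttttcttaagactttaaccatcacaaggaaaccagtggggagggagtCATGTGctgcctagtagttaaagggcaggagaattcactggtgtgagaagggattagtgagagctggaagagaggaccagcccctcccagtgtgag
Dct: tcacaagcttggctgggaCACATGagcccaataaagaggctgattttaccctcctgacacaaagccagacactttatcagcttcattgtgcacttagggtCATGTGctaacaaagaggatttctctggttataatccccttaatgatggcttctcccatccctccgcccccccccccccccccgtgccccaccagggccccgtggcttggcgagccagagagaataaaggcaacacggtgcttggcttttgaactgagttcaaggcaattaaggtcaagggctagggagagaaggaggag

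RefSeq's table held promoters for 5 of the 9 genes, adding Oca2 (chr7:56239509-56239808, plus strand) and Slc24a5 (chr2:125067877-125068176, plus strand). CATGTG occurred, on either strand, in all 5 of these windows and in 14.2% of 32851 promoter windows of the same length. TCATGTG, the same hexamer after a T, occurred in 4 of the 5, all but Oca2, and in 3.77% of all windows. CACGTG, the other E-box that Mitf can bind, occurred in 0 of the 5 and in 7.15% of all, while CANNTG, which includes both, occurred in all 5 and in 72.3% of all. Aligned so that the hexamer reads in the same direction, with 10 bases on each side, the 6 matches were the following, named by the bases from the hexamer's upstream end to the start of transcription.
Tyr, 21 bases upstream: aaaagttagtCATGTGctttgcagaa
Tyrp1, 46 bases upstream: gggagggagtCATGTGctgcctagta
Dct, 150 bases upstream: cacttagggtCATGTGctaacaaaga
Dct, 232 bases upstream, opposite strand: ttattgggctCATGTGtcccagccaa
Slc24a5, 13 bases upstream, opposite strand: tatgctgaatCATGTGagcagtctcc
Oca2, 186 bases upstream, opposite strand: aaattccagcCATGTGtagcaagctc
The matches of Tyr and Tyrp1 and the nearer match of Dct shared 9 bases, GTCATGTGC, read in the gene's direction; this string, searched after the windows were seen, occurred in 0.289% of all windows. A match describes letters in a window and not a bound site.

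**Figure D2:**
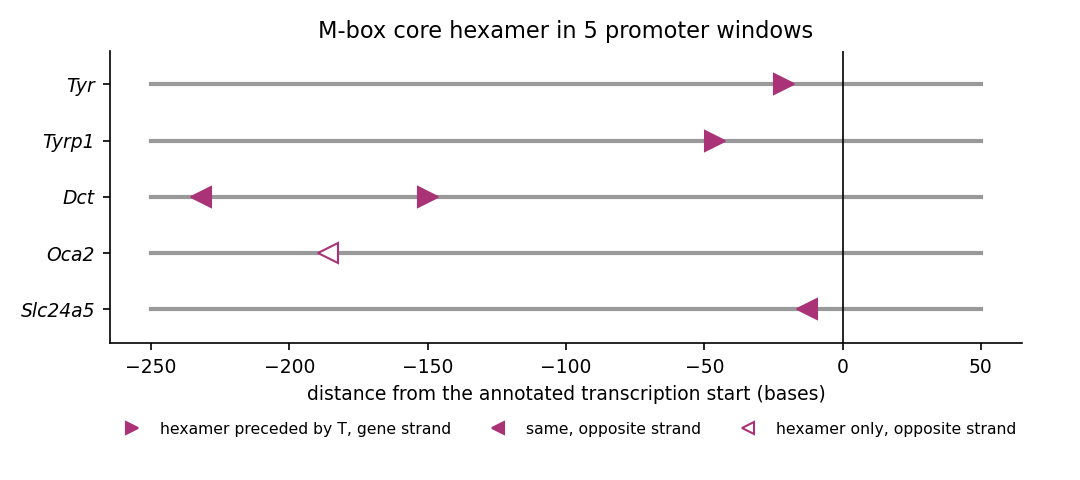
Position of the M-box core hexamer in the 5 available promoter windows; the x axis is the distance in bases from the annotated start, filled triangles mark hexamers preceded by T, the open triangle the one that is not, and the triangle's direction its strand. Tyr, Tyrp1 and Slc24a5 hold it within 46 bases of the start, Dct holds a pair at 150 and 232 bases upstream.

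Pmel (ENSMUSG00000025359, chromosome 10), the fibril protein of the early melanosome, stood at 47.5, 57.1 and 41.4 FPKM in the CON libraries and at 35.8, 58.2 and 34.5 FPKM in the CRS libraries. CRS replicate 2 held the highest value of all 6, so the groups overlapped, and the log2 fold change was -0.21 (SE 0.33 and adjusted p = 0.9999 with limma), close to the median of all genes. It turned to 0.0048 under median-ratio scaling, and ran from -0.45 without CRS replicate 2 to -0.08 without CRS replicate 3. Mlana (ENSMUSG00000024806, chromosome 19), a small membrane protein of melanosomes that associates with Pmel, stood at 108.6, 124.0 and 133.0 FPKM in the CON libraries and at 68.4, 41.4 and 93.0 FPKM in the CRS libraries. All CRS libraries were below all CON libraries. CRS replicate 2, at or near the top for Pmel, Tyrp1, Oca2 and Slc24a5, was the lowest for Mlana. Group means were 121.9 ± 12.3 and 67.6 ± 25.8 FPKM (SD, n = 3). The log2 fold change of -0.92 was the largest of the set (SE 0.38; limma p = 0.0395 unadjusted and 0.9999 adjusted; exact permutation p = 0.1), and it ran from -1.19 without CRS replicate 3 to -0.61 without CRS replicate 2. In that last case Tyr, at -0.93, and Dct, at -0.70, differed more than Mlana.

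Mlana's level carries a reservation about gene length, a factor that cancels in its fold change. For the other 8 genes, FPKM multiplied by the merged exon length of the GENCODE M21 annotation gave whole numbers of fragments in every library. For Mlana that length, 1057 nt, did not, and the shortest length that gave whole fragments in all 6 libraries was 623 nt. On 1057 nt the same fragments would give 40.3 to 78.4 FPKM outside CRS replicate 2 and 24.4 FPKM in it. Mlana then still exceeded Tyrp1 and Pmel in 5 of 6 libraries, all but CRS replicate 2. On 623 nt the counts of Mlana were 664 to 1540 fragments. Which exons those fragments came from was not known, and whether this affects the fold change was not tested.

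Among the transporters and the receptor, Slc45a2 separated the groups. Slc45a2 (ENSMUSG00000022243, chromosome 15), a transporter needed for normal melanosome pH, stood at 4.42, 6.64 and 5.50 FPKM in the CON libraries and at 3.29, 4.05 and 3.56 FPKM in the CRS libraries. Its CRS libraries were all below its CON libraries, although CON replicate 1 and CRS replicate 2 were close; the log2 fold change was -0.57 (SE 0.32 and adjusted p = 0.9999 with limma; exact permutation p = 0.1). Gpr143 (ENSMUSG00000025333, X chromosome), a receptor in the melanosome membrane that limits organelle size, stood at 2.01, 3.19 and 2.79 FPKM in the CON libraries and at 1.80, 2.26 and 1.95 FPKM in the CRS libraries. Only CON replicate 1, the library with Xist, lay within the CRS range. Its log2 fold change was -0.38 (SE 0.37 and adjusted p = 0.9999 with limma), -0.56 without that library and -0.24 without CON replicate 2. Oca2 (ENSMUSG00000030450, chromosome 7), an anion channel protein of the melanosome, stood at 3.53, 4.18 and 4.18 FPKM in the CON libraries and at 2.82, 4.61 and 2.22 FPKM in the CRS libraries, a log2 fold change of -0.35 (SE 0.38 and adjusted p = 0.9999 with limma) that ran from -0.64 without CRS replicate 2 to -0.13 without CRS replicate 3. CRS replicate 2 was again above the controls and the other CRS libraries below them.

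Slc24a5 (ENSMUSG00000035183, chromosome 2), a cation exchanger of the melanosome, was the least stable of the 9. It stood at 3.43, 6.20 and 2.29 FPKM in the CON libraries and at 1.47, 6.64 and 3.59 FPKM in the CRS libraries, and the groups overlapped throughout. Its log2 fold change was -0.15 (SE 0.59 and adjusted p = 0.9999 with limma), 0.41 without CRS replicate 1 and -0.64 without CRS replicate 2. Of its exonic bases 39.5% are shared with Myef2 on the opposite strand, and whether the counting used strand was not given in the sources used here, so fragments of Slc24a5 and Myef2 cannot be told apart there. Myef2 stood at 2.13, 1.33 and 1.20 FPKM in the CON libraries and at 0.701, 2.96 and 0.428 FPKM in the CRS libraries. Both genes were highest in CRS replicate 2. Elsewhere their orders differed: Myef2 was lowest in CRS replicate 3 and Slc24a5 in CRS replicate 1. Pmel shares 4.58% of its exonic bases with Dgka and 1.48% with Cdk2, and the other 7 genes share none with another annotated gene.

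For all 9 genes the spread between libraries was larger than counting error. Dct, with 3457 to 5501 fragments per library, had a within-group SD of 0.16 on the log2 scale, where counting alone gives about 0.022. Slc24a5, with 66 to 398 fragments, had an SD of 0.90 against 0.13 from counting. Gpr143 came nearest to its counting limit, with 69 to 127 fragments, an SD of 0.26 and 0.15 from counting.

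Read together, all 9 log2 fold changes were under 0, where 67.8% of all genes tested were. None of the 9 passed the adjusted threshold of 0.05 with limma, as did 0% of all genes. At an unadjusted limma p under 0.05, 1 of the 9 (Mlana) was lower, and 1.63% of all genes were, while 0 of the 9 and 0.919% of all genes were higher. The groups did not overlap, with CRS lower, for 3 of 9 genes (Dct, Mlana and Slc45a2), and for 5.19% of all genes. The median of the 9 was -0.38, or -0.18 relative to all genes, and 8 of the 9 lay below the median of all genes. Summed over the 9 genes, the level was 270.4, 315 and 294 FPKM in the CON libraries and 182.1, 219.7 and 206.4 FPKM in the CRS libraries. The CRS mean was 69.2% of the CON mean and the groups did not overlap (exact permutation p = 0.1). Under median-ratio scaling it was 80.9% and the groups overlapped (exact permutation p = 0.2). The separation did not hold without Mlana: the other 8 summed to 161.8, 190.9 and 161.0 FPKM in the CON libraries and 113.7, 178.2 and 113.3 FPKM in the CRS libraries, which overlapped (exact permutation p = 0.3). In such bulk RNA, fewer melanocytes and less RNA per melanocyte cannot be told apart.

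How many genes overlapped depended on 1 CRS library. Without CRS replicate 2, 8 of the 9 genes, all but Slc24a5, did not overlap between groups, but 27.4% of all genes then did so too, with CRS lower. The median of the 9 was then -0.64, or -0.42 relative to all genes, and the smallest limma adjusted p among them was 0.192. Without CON replicate 1, 4 of 9 did not overlap, Gpr143 joining, against 7.11% of all genes. With both left out, the 8 genes were again separate, against 31.1% of all genes. Under median-ratio scaling only Dct stayed separate, against 2.75% of all genes, with 7 of 9 genes under 0 and a median of -0.17. Rescaled without mitochondrial and muscle genes, Mlana and Slc45a2 were separate and Dct was not, against 6.49% of all genes.

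**Figure D3:**
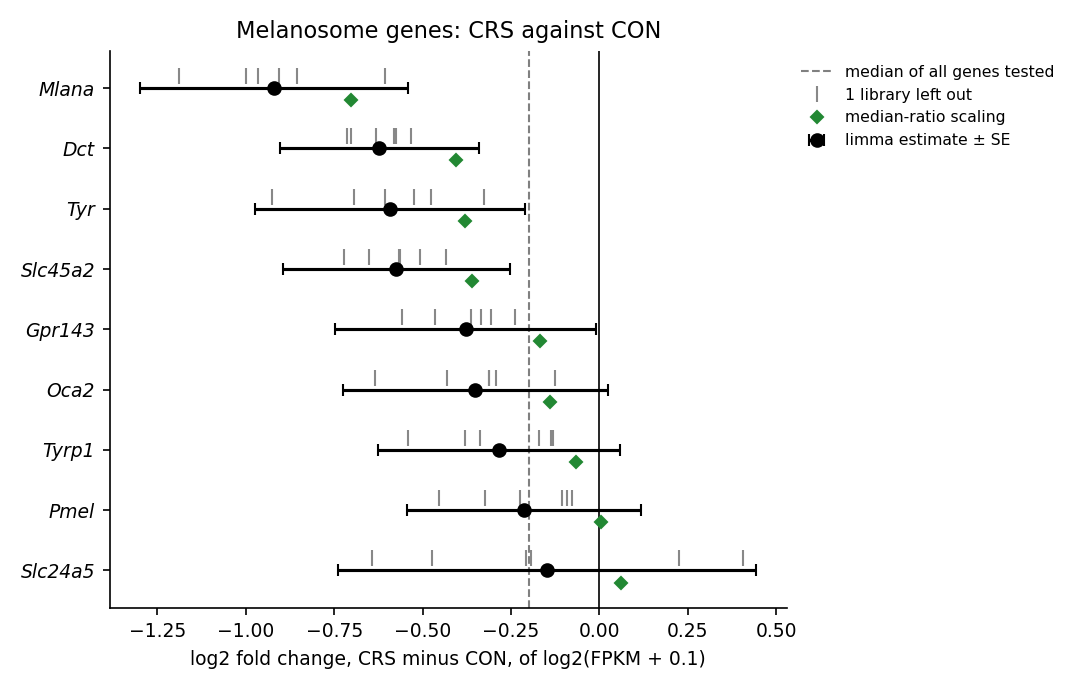
Log2 fold change, CRS minus CON, of log2(FPKM + 0.1) for the 9 genes; black points are limma estimates ± SE, grey ticks the values with 1 library left out, green diamonds the values under median-ratio scaling, and the dashed line the median of all genes tested. Mlana, Dct, Tyr and Slc45a2 lie farthest below the dashed line, and Pmel and Slc24a5 turn above 0 under median-ratio scaling.

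Ratios of 2 genes within a library do not depend on how that library was scaled, so they show whether the genes kept their proportions. The steadiest of the 36 pairs, picked out after its values were seen, was Tyrp1 to Pmel: it was 0.951, 1.12 and 1.16 in CON and 0.965, 1.05 and 1.05 in CRS. Its SD over the 6 libraries was 0.11 on the log2 scale. Of the pairs formed by the 14371 genes averaging 1 FPKM or more, 0.172% had a smaller SD. Tyrp1 and Pmel had mean FPKM above 96.2% and 96.0% of all genes tested, and the pairs were not matched for abundance. The median SD of the 36 pairs was 0.35, and 11.4% of all gene pairs lay below that. The most variable pair was Mlana to Slc24a5, with an SD of 1.12.

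Of the 36 pairs, 3 did not overlap between groups, which is 8.33% and close to the 8.06% of all gene pairs of at least 1 FPKM. The Tyr to Tyrp1 ratio was 0.144, 0.138 and 0.153 in CON and 0.0992, 0.130 and 0.124 in CRS, so every CRS ratio was below every CON ratio. The difference was -0.31 on the log2 scale and lay between -0.38 and -0.19 with each library left out. Its sign could not change there, since the groups do not overlap. Tyr to Pmel was 0.137, 0.154 and 0.178 in CON and 0.0958, 0.136 and 0.131 in CRS, a difference of -0.38, with CON replicate 1 and CRS replicate 2 almost equal. Slc45a2 to Gpr143 was 2.13, 2.05 and 1.94 in CON and 1.79, 1.76 and 1.79 in CRS, a difference of -0.20. Counting alone gives an SD per library of about 0.090 for Slc45a2 and 0.15 for Gpr143 on the log2 scale. The difference is between means of 3 libraries, and its own counting error was not computed. For each of the 3 the exact permutation p was 0.1 and the value adjusted over 36 pairs was 0.869.

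Other proportions of the pathway did not separate the groups. Tyr to Dct was 0.132, 0.215 and 0.148 in CON and 0.113, 0.234 and 0.169 in CRS. Tyrp1 to Dct was 0.915, 1.56 and 0.967 in CON and 1.13, 1.80 and 1.36 in CRS, highest in replicate 2 of each group. Pmel to Slc45a2 was 10.5, 8.49 and 7.41 in CON and 10.6, 14.04 and 9.45 in CRS, and Tyrp1 to Slc45a2 was 10.03, 9.48 and 8.59 in CON and 10.2, 14.7 and 9.95 in CRS. Pmel to Mlana was 0.438, 0.461 and 0.312 in CON and 0.524, 1.40 and 0.372 in CRS, so Pmel exceeded Mlana only in CRS replicate 2. Mlana made up 18.9% of the summed FPKM of the 9 genes in that library and 37.6% to 45.2% in the other 5.

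**Figure D4:**
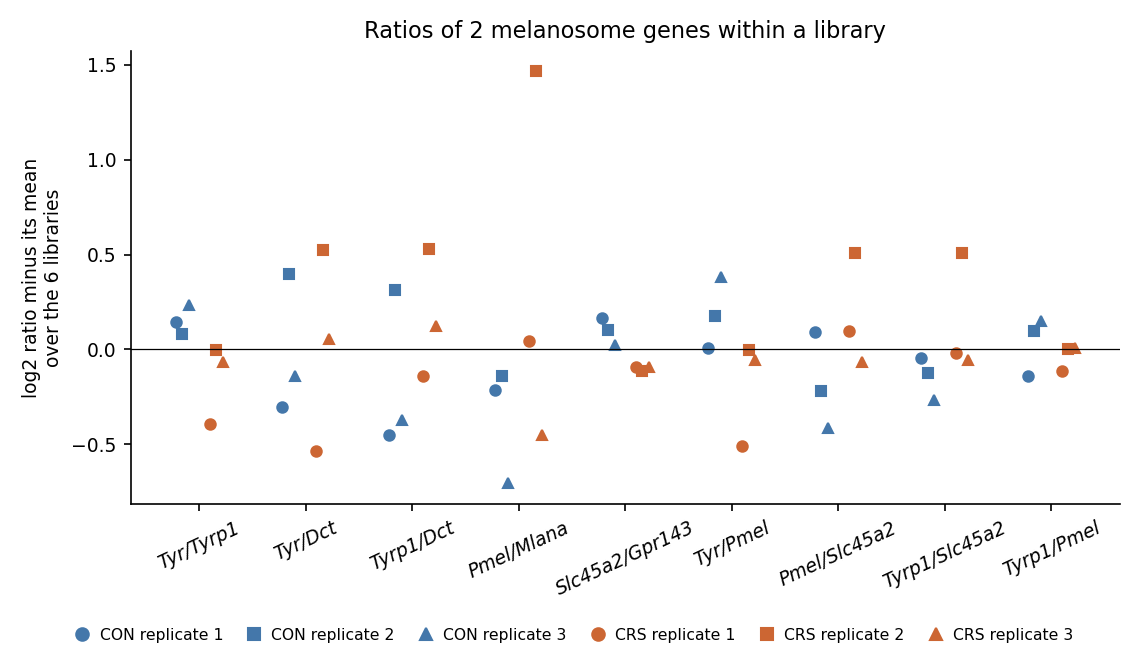
Log2 ratio of 2 genes within each library, minus the mean of that ratio over the 6 libraries, for 9 pairs; blue is CON, orange CRS, and shapes are replicates. Tyr/Tyrp1, Tyr/Pmel and Slc45a2/Gpr143 separate the groups, Tyrp1/Pmel stays near 0 in all 6 libraries, and CRS replicate 2 stands far above the rest for Pmel/Mlana.

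Across the libraries, CON replicate 2 held the highest value for 4 of the 9 genes and CRS replicate 2 for 3 (Pmel, Oca2 and Slc24a5). CRS replicate 1 was lowest for 5 and CRS replicate 3 for 3, and neither was highest for any of the 9. Both had low values for most of the 9, and CRS replicate 3 also had the lowest median over all genes tested (-0.34 from the gene means, against -0.01 to 0.19 in the others).

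Other genes listed for melanocytes were detected in every library: 12 genes, not counting the 9, were all above 0 in all 6 libraries. They summed to 74.8 to 94.0 FPKM in the CON libraries and 45.0 to 108.7 FPKM in the CRS libraries. Ednrb and Tfap2a had the highest CON means, 18.0 and 17.9 FPKM, while Sox10 and Pax3 had 1.80 and 0.76 FPKM. In bulk skin, transcripts of these genes from melanocytes and from other cells cannot be told apart. Of the 12 genes, 10 were lower and 2 higher in CRS. The median of their log2 fold changes was -0.54, which is -0.34 relative to all genes. The groups did not overlap for 3 of them, with CRS lower, against 5.19% of all genes. None passed the adjusted threshold with limma. Syt4, a synaptotagmin, stood at 12.9, 8.55 and 15.3 FPKM in the CON libraries and at 6.64, 5.70 and 3.44 FPKM in the CRS libraries. The melanocortin receptor gene Mc1r, which raises eumelanin synthesis when bound by its ligand, stood at 5.90, 3.23 and 6.49 FPKM in the CON libraries and at 3.09, 1.83 and 1.61 FPKM in the CRS libraries. Tspan10, a tetraspanin named here because its groups did not overlap, was the third. Both Syt4 and Mc1r were lowest among controls in CON replicate 2, as Dct was and Tyr and Tyrp1 were not.

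The lineage regulators overlapped between the groups. Mitf was at 5.56, 9.83 and 12.7 FPKM in the CON libraries and at 10.5, 20.7 and 9.48 FPKM in the CRS libraries. CRS replicates 1 and 3 lay within the control range and CRS replicate 2 above it. The log2 fold change of Mitf was 0.52 (SE 0.43), opposite in sign to all 9 melanosome genes. Sox10, which acts upstream of Mitf, was at 2.05, 1.36 and 2.00 FPKM in the CON libraries and at 0.665, 1.85 and 0.572 FPKM in the CRS libraries. The receptor gene Kit, needed for melanocyte survival and migration, was at 6.59, 2.66 and 4.34 FPKM in the CON libraries and at 1.93, 6.19 and 1.02 FPKM in the CRS libraries. Sox10 and Kit were thus low in CRS replicates 1 and 3 and within the control range in CRS replicate 2, as were Tyr and Tyrp1.

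The genes that build and move melanosomes were more evenly divided. Of 23, many of them active in all cells, 14 were lower and 9 higher, and their median was -0.076, which is 0.12 relative to all genes. The groups did not overlap for 0 of them, against 5.19% of all genes with CRS lower and 1.65% with CRS higher. Rab27a, which tethers melanosomes to the actin cortex, differed by -0.08 on the log2 scale (SE 0.38), and Rab38, which delivers Tyr and Tyrp1 to melanosomes, by -0.28 (SE 0.32). Mreg had 0.42 (SE 0.35), Mlph -0.50 (SE 0.53) and the cystine importer gene Slc7a11 -0.43 (SE 0.47). Of 9 measured signals that act on melanocytes, 6 were lower and 3 higher, with a median of -0.58, which is -0.38 relative to all genes. Kitl, the ligand of Kit, had -1.14 (SE 0.56), Bmp4 -0.75 (SE 0.43) and Edn1 -0.52 (SE 0.32). These were named for the lowest unadjusted limma p of the list. The 3 higher were Pomc at 0.56 (SE 0.71), Hgf at 0.43 (SE 0.59) and Nrg1 at 0.017 (SE 0.47). None of these genes passed the adjusted threshold with limma.

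Gene lists of other cells and states also differed in level between the libraries, and their part in the result was not tested. Pigment genes of mouse skin are transcribed mainly in growing follicles. Of 9 anagen hair matrix genes 6 were lower and 3 higher in CRS, 1 of the latter without overlap, against 1.65% of all genes, and their summed FPKM was 1180 to 4002 in CON and 3800 to 6163 in CRS, so the sum leaned the other way from the median log2 fold change of -0.25. Shh and Lef1, regulators of the growing follicle, differed by -1.22 (SE 0.54) and -0.99 (SE 0.44) on the log2 scale, and Hoxc13 by -0.56 (SE 0.35). They were named for their low unadjusted limma p, while the 3 higher genes of the list reached 1.11. All 8 proliferation genes were lower, as were 67.8% of all genes, and 5 did not overlap between groups, against 5.19% of all genes. Cdk1 stood at 12.4 ± 0.84 FPKM in the CON libraries and 6.48 ± 0.70 FPKM in the CRS libraries (SD, n = 3), and Ube2c and Ccna2 were also among those 5. Their sum was 133.4 to 162.0 FPKM in the CON libraries and 71.7 to 106.6 FPKM in the CRS libraries. The 15 skeletal muscle genes were all lower, summing to 1734 to 15776 FPKM in the CON libraries and 511 to 3337 FPKM in the CRS libraries. Schwann cell genes, which share Sox10 with melanocytes, summed to 48.0 to 62.6 FPKM in the CON libraries and 41.7 to 75.9 FPKM in the CRS libraries. Macrophage genes, 8 of 8 of them higher in CRS without passing the threshold, summed to 158.6 to 472.3 and 293.5 to 421.2 FPKM, and keratinocyte genes, 5 of 6 higher, to 1695 to 2068 and 2112 to 2885 FPKM, in CON and CRS. Of all 28389 genes tested, 9132 were higher in CRS.

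**Figure D5:**
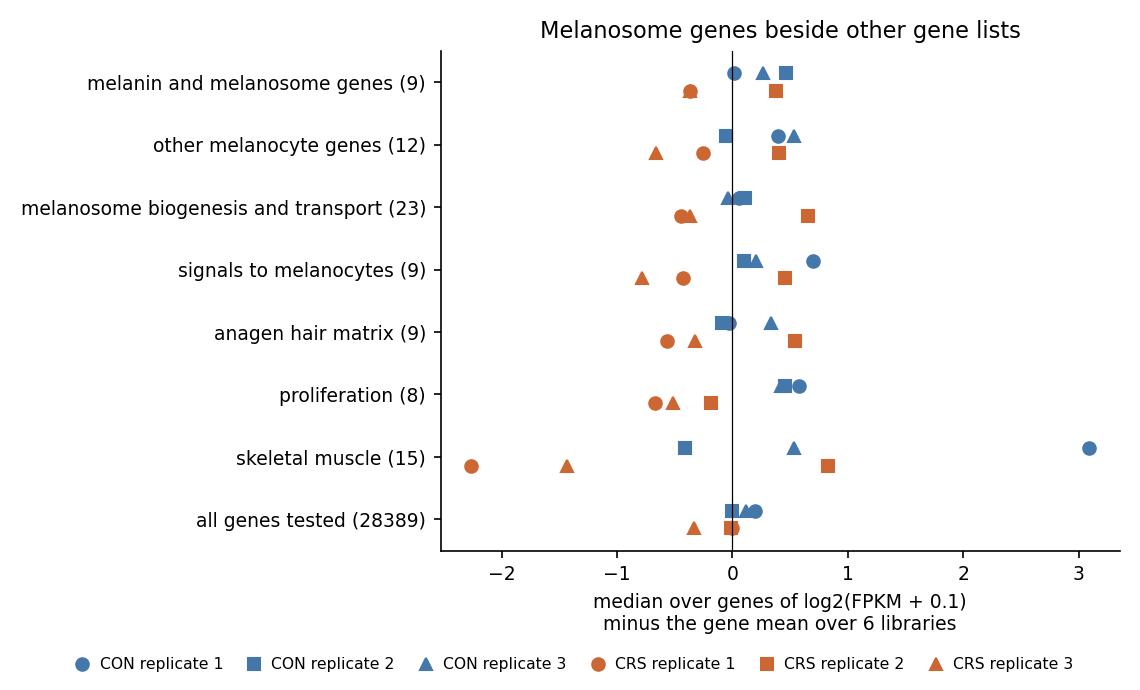
Median over the genes of each list of log2(FPKM + 0.1) minus the gene's mean over the 6 libraries; blue is CON and orange CRS, shapes are replicates, and numbers in brackets count genes. The melanosome genes of CRS replicates 1 and 3 sit near -0.37 and those of CRS replicate 2 at 0.37, within the control range; only the proliferation list separates the groups among the lists drawn.

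The genes whose profile over the 6 libraries was most like the typical profile of the 9 were not pigment genes. Likeness was the mean absolute difference, on the log2 scale, between a gene's centred values and the median of the 9 centred profiles, over 14362 other genes of at least 1 FPKM. The nearest named coding genes were Tfpi (0.069), Ackr3 (0.084), Mfsd14b (0.089), Ggt1 (0.090), Prr5 (0.091) and Tm9sf3 (0.092). Tyrp1, at 0.066, was the member closest to the typical profile, while Dct (0.26), Mlana (0.42) and Slc24a5 (0.50) were farthest from it. Of the other pigment genes Trpm1, a melanocyte cation channel picked out after its rank was seen, came nearest, at rank 204 of 14362, and Mitf ranked 8313 and Mc1r 11337.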

How the data were processed

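RNA-seq of mouse skin was deposited by the authors as 1 table of FPKM per library. Per the submitters' processing notes, reads were aligned with HISAT2 and the build was GRCm39; for the counter, the annotation and the strand setting nothing is given in the sources used here. GENCODE M21 supplied symbols and merged exon lengths, matched by Ensembl ID for 54079 of 54146 IDs. FPKM steps gave fragments within 0.05 of whole for 98.1% to 98.3% of values of up to 100 fragments, and counting errors cover counting only. Values were tested as log2(FPKM + 0.1) in the 28389 genes averaging 0.1 FPKM or more with limma 3.58.1 in R 4.3.3, two-sided, with a mean-variance trend and Benjamini-Hochberg adjustment over all genes. The pseudocount understates fold changes of low genes. Single values, sums and ratios had an exact two-sided permutation test. Ratios are of FPKM + 0.1.

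The 9 genes and the other lists were chosen with earlier results of these data known. The genes named were all 9, in each list the 3 with the lowest unadjusted p, Mitf, Sox10, Mc1r, Kit, Rab27a and Rab38, 4 preset ratios, the 4 further ratios with the largest difference over SD, and the 6 genes with the most similar profile. Asip and Krt85 were listed but matched no ID. Nothing says how the samples of a group were housed or collected. Sample titles do not say whether a library came from a single mouse. The p-values therefore measure only the spread between these samples. Alternatives covered scaling, filter, pseudocount, model and left-out libraries.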

Additional observations from a re-analysis of the deposited data

How the results depend on the processing

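With limma, 0 genes passed the adjusted threshold of 0.05 in any setting run, among 14371 to 42439 genes tested. At 0.10 only array weights gave calls, 3050 of 28389 genes, with 3 of the 9 (Dct, Tyr and Oca2) among them. Array weights also moved the median of all genes to -0.37, and the median of the 9 was -0.14 relative to it. At an unadjusted p under 0.05 the counts were 462 lower and 261 higher in the analysis reported, 338 and 218 with voom on recovered fragments, 208 and 452 under median-ratio scaling, 4148 and 707 without CRS replicate 2, 3081 and 768 without CRS replicate 2 and CON replicate 1, and 6525 and 1109 with array weights. The smallest limma adjusted p among the 9 genes was 0.0898 (Dct, array weights). Median-ratio scaling moved the median of all genes from -0.20 to -0.0039, and rescaling without mitochondrial and muscle genes moved it to -0.44. Relative to all genes, the median of the 9 was -0.16 and -0.19 in these settings, against -0.18 in the analysis reported. The summed CRS level was 80.9% of CON under median-ratio scaling, where the groups overlapped, 59.9% when rescaled without mitochondrial and muscle genes, and 66.3% to 72.7% with each library left out. Genes of the 9 without overlap, counted in settings added after seeing the data, numbered 1 under median-ratio scaling (2.75% of all genes), 2 when rescaled without mitochondrial and muscle genes (6.49%), 3 to 8 with each library left out (7.11% to 27.4%) and 8 with both libraries left out (31.1%). Of 36 ratio pairs, 3 to 10 were without overlap with each library left out and 9 with both left out. The share was highest without CRS replicate 3, 27.8% against 14% of all gene pairs, while without CRS replicate 2 it was 16.7% against 38.9%, and without both 25% against 43.4%. Reversed signs were found for Pmel (0.0048, median-ratio), for Slc24a5 (0.061 median-ratio, 0.0080 quantile, 0.22 without CON replicate 2, 0.41 without CRS replicate 1) and for Tyr to Dct (-0.11 without CON replicate 1, -0.031 without CON replicate 3, -0.22 without CRS replicate 2, -0.37 without both). With each library left out, Slc24a5 ran from -0.64 to 0.41 and Tyr to Dct from -0.22 to 0.30. The cause was not tested. Same-numbered libraries correlated at -0.30, -0.04 and 0.10 in their deviations from the group means, and no library correlated best with its own number. Each deviation is from a mean of only 3 libraries, so these values cannot exclude pairing. With the replicate number as a block 0 genes passed, and 370 were lower and 256 higher at an unadjusted p under 0.05. Gpr143, with 69 to 127 fragments, had the within-group SD closest to its counting error.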
